A study of Danio rerio with 16 samples.

Results

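The genes described here are the circadian clock genes of the zebrafish: the transcription factors of the clock's core loop, the light-inducible cryptochromes, and the basic leucine zipper (bZIP) factors and other genes that the clock drives. They were taken as the rows of the deposited gene count table that carry 48 listed symbols. Of these symbols, 41 named a row directly, 2 (cry1a and cry1b) named a row through a synonym (cry1aa and cry1ab), and the other 5 were alternative names of rows already counted (bmal1a, bmal1b, bmal2, cry3a and cry3b for arntl1a, arntl1b, arntl2, cry1ba and cry1bb). This gave 43 genes of the 36109 in the table, and all 43 were among the 24300 genes that passed the filter on low counts.

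The table holds bulk RNA-seq read counts from 16 libraries, labelled as body and described as whole embryos. There were 4 groups of 4 libraries: mutants at 48 h post-fertilisation (hpf), their siblings at 48 hpf, mutants at 24 hpf and their siblings at 24 hpf, called mut48, sib48, mut24 and sib24 in the plots. Mutants carried CRISPR/Cas9-made knockouts of both lipf (a lipase gene) and pla2g15 (the lysosomal phospholipase A2 gene), and the siblings were labelled WT, with no treatment. The labels give no light regime, no hour of collection, no clutch and no number of embryos per library, so the phase of the clock at collection cannot be told apart from genotype or age. Separate clutches are not stated for the libraries, so a p-value here measures nothing beyond the variation among these libraries, part of which could be technical.

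The vertebrate clock is a feedback loop of transcription. Clock or Npas2 pairs with Bmal (here Arntl) and activates genes through E-boxes, and the products of some of those genes, the Period and Cryptochrome proteins, return to the nucleus and repress the pair. Rev-erb and Ror nuclear receptors close a second loop on the Bmal genes, and PAR bZIP factors (Tef, Dbp, Hlf) and Nfil3 act on D-box elements. In zebrafish most cells are directly light-sensitive, and per2, cry1aa and several D-box genes are induced by light as well as by the clock.

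Depth was 35851800 to 50462300 counts per library, to the nearest 100. The targeted genes were checked first: lipf lay at 0.577 to 2.34 CPM (counts per 1000000) in 24 hpf mutants against 8.84 to 25.2 CPM in 24 hpf siblings, and at 2.03 to 3.03 CPM in 48 hpf mutants against 16.98 to 31.6 CPM in 48 hpf siblings. The pla2g15 counts overlapped between genotypes at both ages, so they do not check the labels. CPM values below are scaled by TMM (trimmed mean of M-values) factors and are not corrected for gene length, so levels are compared between libraries and never between genes. In whole-embryo RNA, fewer cells of a type and less RNA per cell cannot be told apart. Markers of the pineal organ, retina, brain, muscle, heart, yolk syncytial layer, epidermis and blood all gave counts, with no listed marker in the table at 0 in every library. Some were near the floor. Under 1 CPM in every library, without TMM factors, were 4 of 17 retina, 2 of 22 yolk syncytial layer and 1 of 19 pineal markers.

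At 24 hpf, 4 of the 43 clock genes (cry-dash, tefa, per3 and cry1ab) fell in mutants and none rose (edgeR quasi-likelihood test, adjusted p under 0.05 over all genes tested). Across all 24300 genes 0.831% were called and 0.44% were called lower. The clock genes' log2 fold change (mutant over sibling) was below 0 for 32 of 43, where it was so for 50.7% of all genes. Its median was -0.14 over the clock genes and -0.00 over all genes. Libraries of the 2 genotypes did not overlap for 10 clock genes that were lower in mutants (23.3% of them, against 4.35% of all genes) and for 1 that was higher (against 4.17% of all genes). For the absence of higher calls, 1 clock gene (cry1ba) was higher at an unadjusted p under 0.05, where 6.99% of all genes were, and DESeq2 called 0 higher and 8 lower. Over all 24300 genes DESeq2 called 373 higher and 449 lower.

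The 4 genes that fell belong to the cryptochrome family, the Period genes and the PAR bZIP factors. Of the 8 cryptochrome family genes, 5 were lower in every mutant library than in any sibling library, and their family's median log2 fold change was -0.84. The cry-dash gene encodes a DASH-type cryptochrome, a class with photolyase activity on single-stranded DNA. Its level was 12.9, 11.6, 12.1 and 13.6 CPM in 24 hpf mutants, against 22.9, 22.7, 26.4 and 22.1 CPM in 24 hpf siblings. The lowest sibling library thus stood well above the highest mutant library, and the spread within each genotype was small. The log2 fold change was -0.91 (SE 0.165), with an edgeR adjusted p of 0.0157.

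The repressor cryptochrome cry1ab fell less evenly. It lay at 5.03, 6.61, 6.75 and 10.6 CPM in 24 hpf mutants and at 11.3, 13.2, 13.0 and 12.6 CPM in 24 hpf siblings. Mutant replicate 4 came close to the lowest sibling library but did not reach it. The log2 fold change was -0.78 (SE 0.173, edgeR adjusted p = 0.0413), and in a fit of the 24 hpf libraries alone the adjusted p was 0.128.

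The other light-associated cryptochromes showed fold changes as large or larger without passing the test. The light-inducible repressor cry1aa lay at 10.5, 9.68, 13.2 and 17.4 CPM in 24 hpf mutants, against 36.7, 36.4, 37.2 and 35.2 CPM in 24 hpf siblings. The sibling libraries were almost identical and the highest mutant library reached less than their lowest. Its log2 fold change was -1.52 (SE 0.363), with an edgeR adjusted p of 0.0583. The (6-4) photolyase gene cry5, which repairs ultraviolet damage, lay at 2.98, 5.56, 5.13 and 4.45 CPM in 24 hpf mutants, against 8.74, 10.7, 8.87 and 9.05 CPM in 24 hpf siblings. These groups did not overlap either, and the log2 fold change was -1.04 (SE 0.250, edgeR adjusted p = 0.0584).

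A further repressor cryptochrome, cry1bb, and the Period gene per2 are given here because their values stood apart once seen. For cry1bb the libraries read 13.6, 14.2, 17.5 and 19.5 CPM in 24 hpf mutants and 28.6, 29.6, 30.6 and 35.1 CPM in 24 hpf siblings. For per2, a light-induced Period gene in zebrafish, they read 10.8, 9.08, 8.55 and 12.3 CPM in 24 hpf mutants and 25.2, 31.0, 30.0 and 29.6 CPM in 24 hpf siblings. Both genes kept the genotypes apart in all 8 libraries, per2 by more than the whole range within either genotype. Their log2 fold changes were -0.93 (SE 0.247, edgeR adjusted p = 0.0847) for cry1bb and -1.51 (SE 0.431, edgeR adjusted p = 0.104) for per2.

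Those standard errors draw on all 16 libraries, and the 48 hpf mutants varied widely in these very genes, as described further on. The 0.831% of all genes called, given above, also comes from the fit of all 16 libraries. No such share is given for the fit of the 24 hpf libraries alone. When the 24 hpf libraries were fitted alone, edgeR called 7 clock genes, all lower. The adjusted p was then 0.00103 for per2, 0.00378 for cry1aa, 0.0108 for cry1bb and 0.0385 for cry5, while cry-dash, tefa and per3 stayed called. DESeq2 called the 4 genes above together with cry1aa, cry1bb, cry5 and nfil3-5.

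Among the other Period genes, per3 fell in mutants. Its libraries read 31.1, 32.9, 39.1 and 48.1 CPM in 24 hpf mutants, against 65.1, 69.1, 72.6 and 62.9 CPM in 24 hpf siblings. The mutant libraries were spread over a wider range than the siblings but stayed below all of them. The log2 fold change was -0.83 (SE 0.160), with an edgeR adjusted p of 0.0203. The E-box-driven gene per1b had a log2 fold change of -0.49 (SE 0.277) and overlapping libraries, and per1a was at about 1 CPM in both genotypes, 1.05 ± 0.246 CPM in mutants and 0.947 ± 0.492 CPM in siblings (SD, n = 4).

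Of the D-box factors, tefa was the gene that fell. This PAR bZIP activator lay at 75.0, 76.5, 71.5 and 76.7 CPM in 24 hpf mutants, against 118, 119, 132 and 115 CPM in 24 hpf siblings. The mutant libraries sat within a few CPM of one another and far below the siblings. The log2 fold change was -0.69 (SE 0.131), with an edgeR adjusted p of 0.0181. Its paralogue tefb had a log2 fold change of -0.25 (SE 0.242), dbpa had one of -0.57 (SE 0.247), and dbpb, hlfa and hlfb lay between -0.21 and 0.19. The D-box repressor nfil3-6 was low in count, at 1.28 ± 0.301 CPM in mutants and 2.57 ± 1.101 CPM in siblings (SD, n = 4), and its libraries did not overlap, yet it missed the test (log2 fold change -1.005, SE 0.408, edgeR adjusted p = 0.270).

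**Figure D1:**
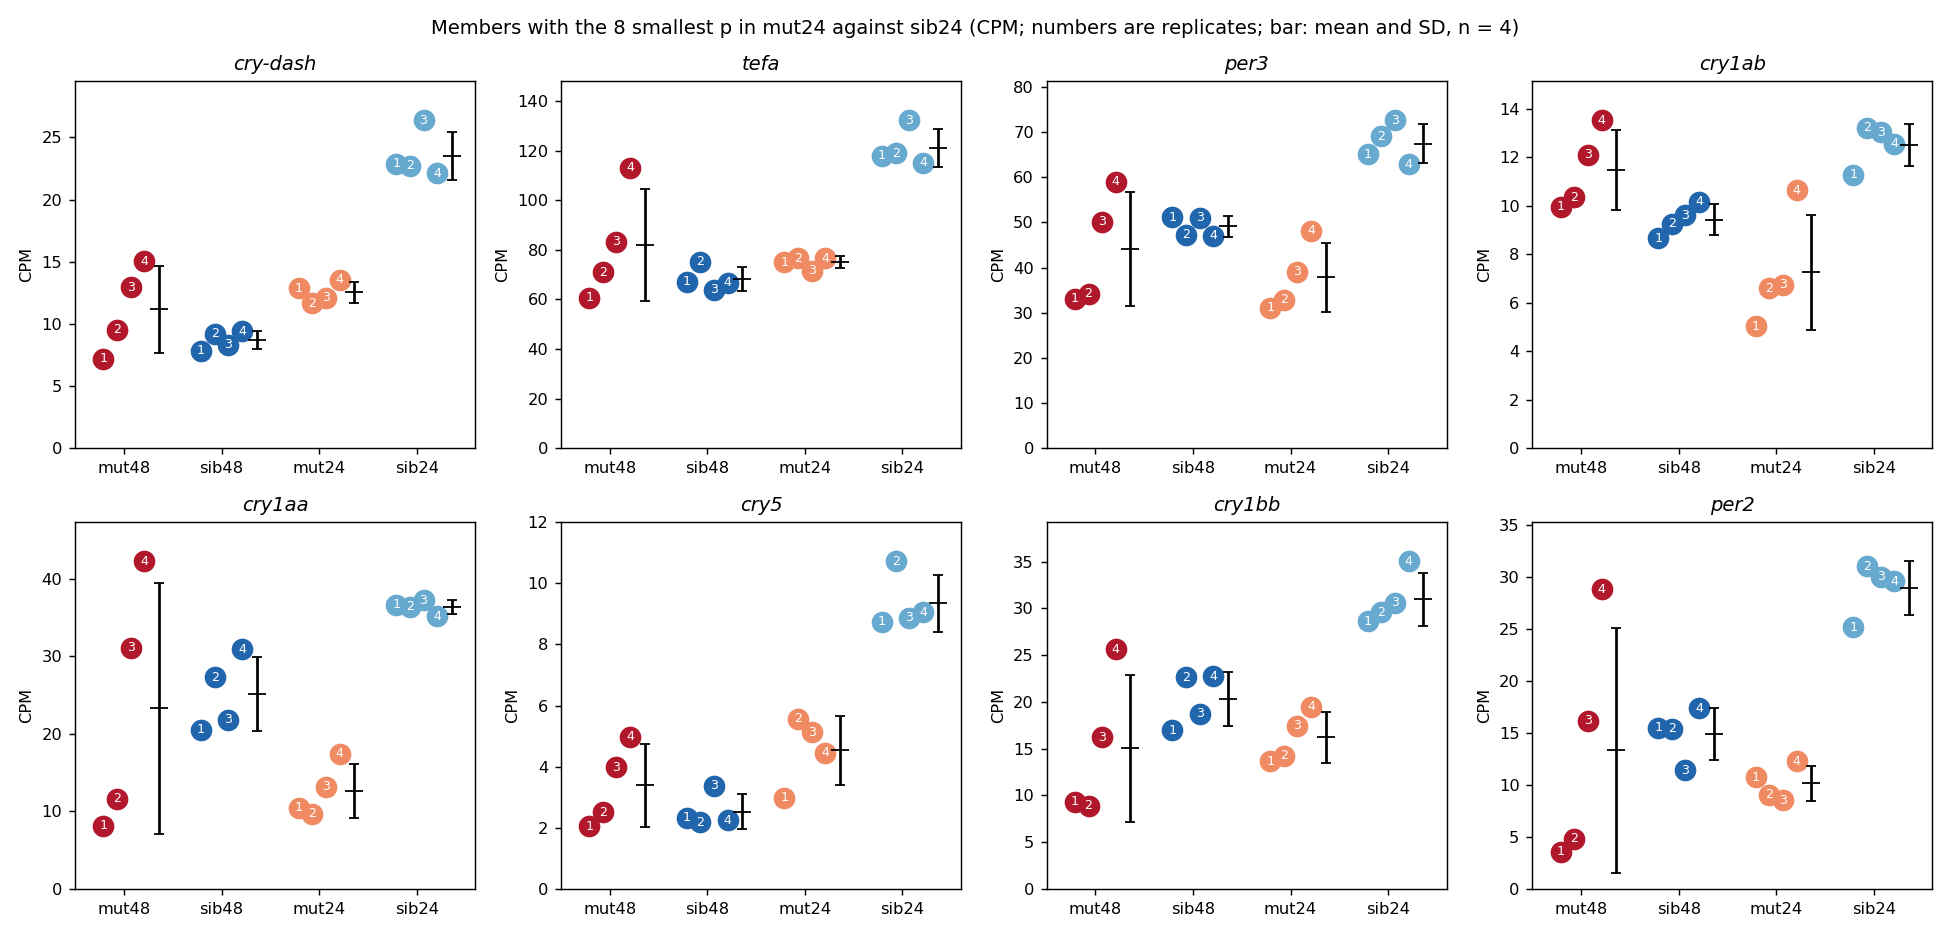
Normalised level (CPM, linear axis from 0) of the 8 clock genes with the smallest p between mutants and siblings at 24 hpf, in all 16 libraries. Numbered points are replicates and black bars are the mean and SD (n = 4). In all 8 genes the 24 hpf mutant points lie below every 24 hpf sibling point, while at 48 hpf the mutant and sibling points overlap.

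The positive limb gave no calls at 24 hpf. None of its 6 genes was called, and none reached an unadjusted p under 0.05 in edgeR or an adjusted p under 0.05 in DESeq2. Both Clock genes, npas2 and the 3 Arntl (Bmal) genes had log2 fold changes between -0.24 and 0.02. The Arntl genes were measured tightly: arntl1a averaged 16.2 ± 0.267 CPM in 24 hpf mutants and 17.1 ± 1.09 CPM in 24 hpf siblings (SD, n = 4). For arntl1b the log2 fold change was -0.13 (SE 0.0679) and for arntl2 it was 0.02 (SE 0.0900).

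The nuclear receptor loop, the other repressors and the kinases gave no calls at 24 hpf either. None of the 5 Rev-erb genes (nr1d1, nr1d2a, nr1d2b, nr1d4a, nr1d4b), which repress Bmal transcription, and none of the 4 Ror genes, which activate it, was called by edgeR or DESeq2. At an unadjusted p under 0.05 there was 1 of them, nr1d4a (log2 fold change -1.20, SE 0.485), which averaged only 0.185 ± 0.123 CPM in mutants and 0.418 ± 0.213 CPM in siblings (SD, n = 4). The ciarta, ciartb, bhlhe40 and bhlhe41 genes, whose products repress Clock and Bmal, lay between -0.10 and 0.16 on the log2 scale. The Period kinase gene csnk1db was level to within its error, with a log2 fold change of -0.01 (SE 0.0549), and csnk1e had one of -0.26 (SE 0.125). The aanat2 gene encodes the enzyme that sets the rhythm of melatonin in the pineal organ. It lay at 2.37, 3.23, 2.16 and 2.60 CPM in 24 hpf mutants and at 3.10, 3.37, 3.27 and 2.98 CPM in 24 hpf siblings, with overlapping libraries and an edgeR adjusted p of 0.655.

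The single non-overlapping clock gene that was higher in mutants was cry1ba, another repressor cryptochrome. It read 124, 134, 116 and 143 CPM in 24 hpf mutants and 104, 112, 105 and 104 CPM in 24 hpf siblings. The gap between the genotypes was narrow, with a log2 fold change of 0.28 (SE 0.102, edgeR adjusted p = 0.223). Paralogues such as cry1ba and cry1bb, or cry1aa and cry1ab, may share reads, and the rule for counting such reads was not given in the sources used here.

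The calls at 24 hpf depended on single libraries. In edgeR, leaving out mutant replicate 2 left 0 clock genes called, and leaving out sibling replicate 1, mutant replicate 1 or mutant replicate 3 left 1, cry-dash. Calls over all genes fell in those fits too, to between 62 and 98, against 202 with all libraries.

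Other genes tied to light and the clock were read from lists. Of 12 genes for light-induced and DNA repair functions, 2 fell at 24 hpf: lonrf1, a RING finger gene, and neil1, a base excision repair glycosylase. None rose by edgeR or DESeq2 or was higher at an unadjusted p under 0.05. The lonrf1 libraries read 7.64, 9.78, 12.1 and 12.4 CPM in 24 hpf mutants and 15.8, 19.9, 20.1 and 18.7 CPM in 24 hpf siblings (log2 fold change -0.83, SE 0.162, edgeR adjusted p = 0.0226). For neil1 they read 11.2, 11.3, 12.6 and 10.8 CPM in mutants and 15.6, 17.3, 17.1 and 15.1 CPM in siblings (log2 fold change -0.50, SE 0.114, edgeR adjusted p = 0.0459). Both genes kept the genotypes apart, and the median log2 fold change of the 12 was -0.13.

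Further lists were read in the same way. None of 21 genes for clock protein turnover, 22 co-regulators, 19 photopigments or 14 glucocorticoid targets was called at 24 hpf. At an unadjusted p under 0.05 these lists held 1, 5, 0 and 2 genes, and DESeq2 called 0, 2, 0 and 1 of them. The shares at that p were 4.76%, 22.7%, 0% and 14.3%, against 13.7% of all genes. Of 21 clock outputs, 2 rose and 1 fell. The chaperone gene hsp90aa1.2 rose, with a log2 fold change of 1.39 (SE 0.197, edgeR adjusted p = 0.00435). The pdk4 gene, whose product restrains pyruvate oxidation, fell, with a log2 fold change of -0.85 (SE 0.130, edgeR adjusted p = 0.00699).

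Several other markers moved with genotype at 24 hpf, and their part in the clock gene differences was not tested. Of 14 epidermis and periderm markers 5 rose, with summed levels of 17968 to 25379 CPM in mutants and 9974 to 16861 CPM in siblings. Of 14 muscle markers 2 fell, with sums of 10943 to 12433 CPM in mutants and 12949 to 17337 CPM in siblings. At an unadjusted p under 0.05 in edgeR, 12 epidermis markers were higher and 8 muscle markers lower. All 14 epidermis log2 fold changes were positive, and 13 of the 14 for muscle were negative. No retina, blood, brain or heart marker was called by edgeR. Their log2 fold changes were negative for 9 of 13, 8 of 9, 7 of 10 and 4 of 7 genes. Of 15 immediate early genes 1 rose, fosab, which read 8.02, 3.86, 6.62 and 1.19 CPM in mutants and 0.503, 0.674, 0.767 and 0.905 CPM in siblings. Over the 15 genes, 14 log2 fold changes were positive and 1 negative, with a median of 0.69. At an unadjusted p under 0.05 in edgeR 7 were higher, and DESeq2 called 5 higher. Their sums were 302 to 428 CPM in mutants and 292 to 312 CPM in siblings. Of 17 other pineal markers 1 fell (bsx), with sums of 70.7 to 77.6 CPM in mutants and 68.8 to 73.0 CPM in siblings. These sums held tbx2b at a mean of 51.3 CPM in mutants and 47.1 CPM in siblings. Over the 17 markers, 11 log2 fold changes were negative and 6 positive, with a median of -0.08. Yolk syncytial layer markers varied widely within both genotypes, with sums of 524 to 5709 CPM in mutants and 672 to 5056 CPM in siblings, and none of 20 was called by edgeR or DESeq2 or had an unadjusted p under 0.05. With the mean log2 level of those 20 genes as a covariate, 7 clock genes were called at 24 hpf, all of them lower in mutants. The fit of the 24 hpf libraries alone, without this covariate, also called 7, and the part of yolk content was not tested. The share of all genes called is not given for either fit.

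At 48 hpf, 2 of the 43 clock genes (bhlhe40 and dbpb) rose in mutants and none fell. Across all genes 7.43% were called and 2.84% were called higher, and the clock genes' share of 4.65% was near these values. Libraries did not overlap for 4 clock genes, 9.30% of them, against 14.2% of all genes. The median log2 fold change was 0.00 for the clock genes and -0.04 for all genes. For the absence of lower calls, edgeR gave 2 clock genes lower at an unadjusted p under 0.05, where 13.7% of all genes were, and DESeq2 called 0. Over all 24300 genes DESeq2 called 1486 lower.

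Both genes that rose encode transcription factors. The repressor bhlhe40, also known as Dec1, lay at 59.6, 60.7, 65.5 and 60.2 CPM in 48 hpf mutants, against 43.5, 54.0, 40.0 and 51.0 CPM in 48 hpf siblings. The mutants were close together and the siblings spread, with no overlap. The log2 fold change was 0.38 (SE 0.0928), with an edgeR adjusted p of 0.0188. The PAR bZIP activator dbpb lay at 6.22, 8.27, 10.2 and 11.5 CPM in 48 hpf mutants, against 5.84, 4.86, 5.45 and 5.68 CPM in 48 hpf siblings. Here the siblings were close together and the mutants spread, the lowest of them just above the highest sibling. The log2 fold change was 0.73 (SE 0.185), with an edgeR adjusted p of 0.0244. Leaving out sibling replicate 3 or mutant replicate 3 left neither gene called. Leaving out sibling replicate 2 or 4 left bhlhe40 alone. Without mutant replicate 1 there were 4 calls, ciartb and cry-dash being added, and without mutant replicate 4 there were 3, bhlhe40, cry1bb and rorab. The share of all genes called is not given for these fits, so these counts are not read as particular to clock genes.

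The next 4 genes by p at 48 hpf missed the test. The Ror gene rorab lay at 28.2, 23.1, 31.0 and 38.5 CPM in 48 hpf mutants and at 38.2, 35.9, 36.9 and 40.7 CPM in 48 hpf siblings, where mutant replicate 4 overlapped the siblings (log2 fold change -0.33, SE 0.115, edgeR adjusted p = 0.0946). The PAR bZIP gene hlfb lay at 11.2, 10.8, 12.7 and 11.2 CPM in mutants and 16.7, 13.2, 15.7 and 14.4 CPM in siblings, without overlap (log2 fold change -0.38, SE 0.137, edgeR adjusted p = 0.0987). The repressor bhlhe41 (Dec2) lay at 9.22, 8.84, 13.3 and 11.2 CPM in mutants and 7.65, 8.81, 7.67 and 8.50 CPM in siblings, without overlap, though narrowly (log2 fold change 0.38, SE 0.162, edgeR adjusted p = 0.167). For rorca, a further Ror gene, the values were 36.9, 27.3, 29.8 and 36.2 CPM in mutants and 26.4, 28.9, 25.2 and 25.6 CPM in siblings, which overlapped (log2 fold change 0.29, SE 0.129, edgeR adjusted p = 0.186).

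**Figure D2:**
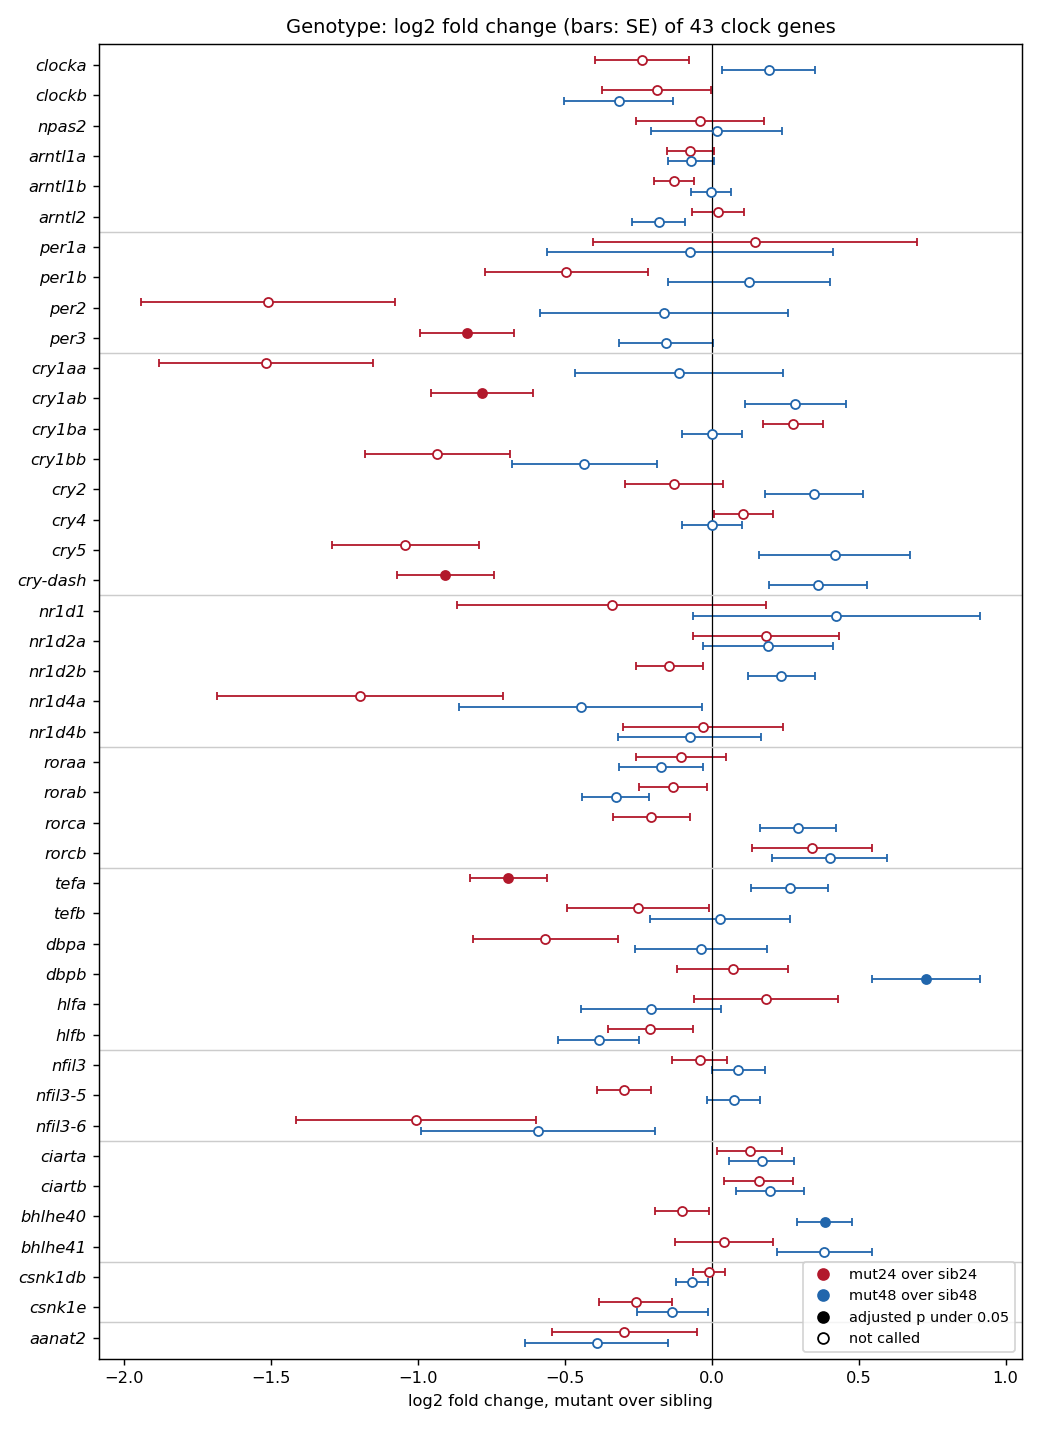
Log2 fold change (mutant over sibling) with its SE for each of the 43 clock genes, by role, at 24 hpf (red) and 48 hpf (blue). Filled points passed an adjusted p under 0.05. The 4 filled points at 24 hpf lie left of 0 (cry-dash, tefa, per3, cry1ab) and the 2 at 48 hpf lie right of it (bhlhe40, dbpb).

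None of the 4 genes that fell at 24 hpf was called at 48 hpf. At that age cry-dash read 7.18, 9.54, 12.9 and 15.04 CPM in mutants against 7.82, 9.21, 8.34 and 9.42 CPM in siblings, and tefa read 60.7, 71.1, 83.2 and 113 CPM in mutants against 67.2, 75.1, 63.9 and 66.7 CPM in siblings. In both genes the lowest 48 hpf library and the highest were mutants. The change of the genotype difference with age was tested as an interaction, for which 3 clock genes were called, all positive, where 1% of all genes were called and 0.486% were called with a positive value. The interaction (48 hpf difference minus 24 hpf difference) was 1.27 for cry-dash (SE 0.234, edgeR adjusted p = 0.0176), 0.96 for tefa (SE 0.185, adjusted p = 0.0214) and 1.07 for cry1ab (SE 0.244, adjusted p = 0.0450). The call for cry1ab was lost in 14 of 22 alternative fits, whereas those for cry-dash and tefa were kept in all 22. Each of these fits took 1 spread per gene over the groups, so none could test the effect of unequal spread. In 48 hpf mutants the SD of log2 CPM was 0.47 for cry-dash and 0.38 for tefa. In 48 hpf siblings, 24 hpf mutants and 24 hpf siblings it was 0.12, 0.10 and 0.11 for cry-dash. For tefa it was 0.10, 0.05 and 0.09 there. Among the clock genes that missed the call, 9 had an unadjusted p under 0.05 and a positive value, which makes 12 of 43 positive at that level, where 6.4% of all genes were. DESeq2 called 6 clock genes, all positive, where it called 472 positive and 439 negative over all 24300 genes. No clock gene was negative at an unadjusted p under 0.05, where 9.58% of all genes were, or by DESeq2.

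Within the 48 hpf mutants, clock gene levels differed between libraries more than in the other groups. The SD of log2 CPM over the 4 libraries had a median over the 43 genes of 0.34 in 48 hpf mutants, 0.12 in 48 hpf siblings, 0.24 in 24 hpf mutants and 0.13 in 24 hpf siblings. Over all genes the medians were 0.23, 0.19, 0.21 and 0.22 in the same order of groups. The largest of the 4 SDs was that of the 48 hpf mutants for 31 of the 43 clock genes (72.1%), and for 29.3% of all genes. Without mutant replicate 1, 2, 3 or 4 it was so for 27, 31, 29 or 30 of them. The SD exceeded 0.5 in 12 of the 43 clock genes in 48 hpf mutants, 0 in 48 hpf siblings, 2 in 24 hpf mutants and 4 in 24 hpf siblings. Over all genes it did so in 18.5% in 48 hpf mutants, 16.2% in 48 hpf siblings, 22% in 24 hpf mutants and 23.1% in 24 hpf siblings. These genes share the same libraries, so their counts are not independent, and this spread was noticed in the data and described without a test.

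The Rev-erb gene nr1d1 varied most. It lay at 0.732, 1.86, 6.29 and 8.34 CPM in 48 hpf mutants and at 2.76, 3.69, 2.75 and 3.63 CPM in 48 hpf siblings. Replicates 1 and 2 of the mutants were below every sibling and replicates 3 and 4 above every one, a range of 11.4-fold in mutants and 1.34-fold in siblings.

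The Period genes did the same to different degrees. Libraries of per1a read 1.14, 3.15, 8.91 and 11.1 CPM in 48 hpf mutants and 9.28, 5.47, 6.39 and 4.44 CPM in 48 hpf siblings. Those of per2 read 3.57, 4.80, 16.2 and 28.8 CPM in mutants and 15.5, 15.4, 11.4 and 17.4 CPM in siblings. Those of per1b read 43.2, 83.0, 149 and 144 CPM in mutants and 102, 86.3, 96.2 and 99.2 CPM in siblings. In per1b mutant replicates 3 and 4 stood above all siblings, while in per1a and per2 replicate 3 lay among them. For per3 the mutant range was narrower, from 33.1 to 59.0 CPM, against 47.1 to 51.1 CPM in siblings.

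Among the cryptochromes, cry1aa lay at 8.14, 11.6, 31.2 and 42.3 CPM in 48 hpf mutants and at 20.6, 27.3, 21.8 and 30.9 CPM in 48 hpf siblings. Its values and those of cry1bb, at 9.31, 8.90, 16.2 and 25.6 CPM in mutants and 16.95, 22.6, 18.7 and 22.8 CPM in siblings, were below every sibling library in mutant replicates 1 and 2. The D-box pair showed it too. The activator tefb read 50.1, 81.5, 123 and 167 CPM in mutants and 117, 97.8, 110 and 90.1 CPM in siblings, and the repressor nfil3-6 read 0.595, 1.36, 2.50 and 3.35 CPM in mutants and 3.68, 3.32, 2.26 and 2.49 CPM in siblings. In tefb and nfil3-6 mutant replicates 1 and 2 were again below every sibling. None of these Rev-erb, Period, cryptochrome and D-box genes was called between genotypes at 48 hpf.

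**Figure D3:**
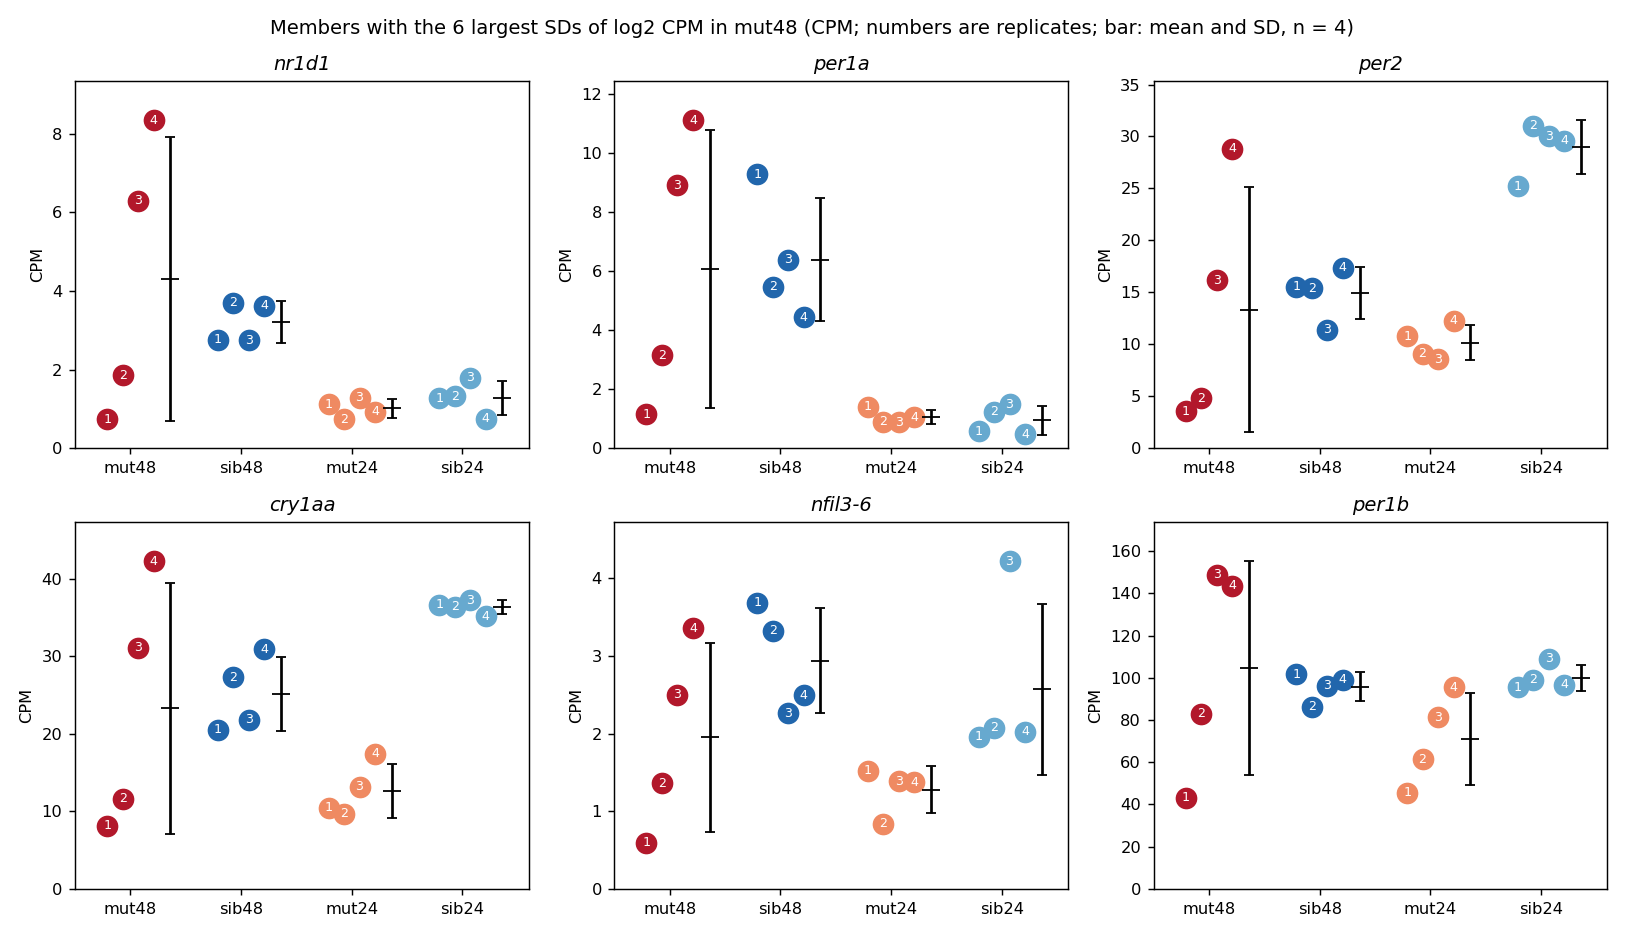
Normalised level (CPM, linear axis from 0) of the 6 clock genes with the largest SD of log2 CPM in 48 hpf mutants, in all 16 libraries. Numbered points are replicates and black bars are the mean and SD (n = 4). Replicate 1 is the lowest 48 hpf mutant in each gene, and replicate 3 or 4 the highest, on both sides of the siblings' range in nr1d1, per2, cry1aa, per1a and per1b.

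The places of lowest and highest library were unevenly shared among the 48 hpf mutants, each counted here on its own. Replicate 1 was the lowest library in 24 of 43 clock genes, replicate 2 in 16, replicate 3 in 3 and replicate 4 in 0. Replicate 4 was the highest in 24, replicate 3 in 12, replicate 1 in 5 and replicate 2 in 2. Over all genes each of these libraries was the lowest in 22.1% to 27.4% and the highest in 22.6% to 26.7%. At 24 hpf, mutant replicate 4 was the highest mutant library in 23 of 43 clock genes, where it was so in 24.9% of all genes. Mutant replicate 1 was the lowest there in 19, where it was so in 30.6% of all genes. The 24 hpf siblings were uneven too, with replicate 4 lowest in 20 and replicate 1 in 14. Their replicates 3 and 2 were highest in 16 and 15. In 48 hpf siblings no library was lowest or highest in more than 14.

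Not all clock genes shared the spread. The Bmal gene arntl1b read 26.8, 24.9, 25.3 and 25.8 CPM in 48 hpf mutants and 25.2, 24.6, 27.2 and 26.0 CPM in 48 hpf siblings, with an SD of log2 CPM of 0.05 and 0.06. The kinase gene csnk1db and the repressor bhlhe40 were as tight in mutants, with SDs of 0.07 and 0.06. The Clock gene clockb did vary, at 22.4, 21.6, 39.1 and 44.4 CPM in mutants and 42.1, 36.2, 42.4 and 37.8 CPM in siblings, whereas clocka stayed between 7.98 and 9.44 CPM in mutants. The melatonin enzyme gene aanat2 read 2.36, 2.40, 3.79 and 5.19 CPM in mutants and 3.34, 4.67, 4.08 and 5.93 CPM in siblings, with overlap and an edgeR adjusted p of 0.382.

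**Figure D4:**
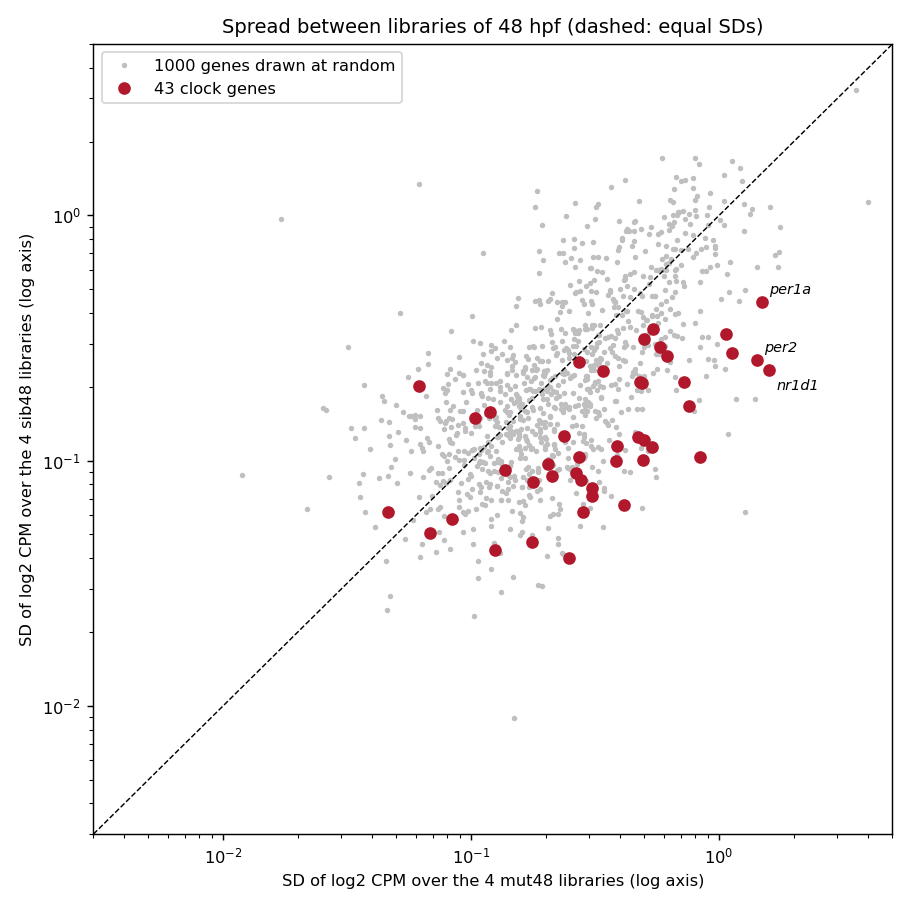
SD of log2 CPM over the 4 mutant libraries (horizontal) and the 4 sibling libraries (vertical) at 48 hpf, both on log axes, for the 43 clock genes (red) and for 1000 genes drawn at random (grey). The dashed line marks equal SDs. Most red points lie right of the line, with nr1d1, per1a and per2 at SDs of 1.59, 1.48 and 1.42 in mutants.

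Other lists were read across the 48 hpf libraries as well, and their part in the spread was not tested. The mean log2 level of the 12 light-induced and repair genes was 3.57, 3.65, 3.74 and 3.77 in 48 hpf mutants and 3.62, 3.75, 3.76 and 3.76 in 48 hpf siblings. That of the 21 clock outputs was 4.89, 5.21, 5.37 and 5.38 in mutants and 5.31, 5.22, 5.18 and 5.24 in siblings. By this mean, mutant replicate 1 was the lowest 48 hpf library in both lists and mutant replicate 4 the highest. By summed CPM, the repair genes lay at 244 to 254 CPM in mutants, within the 230 to 273 CPM of siblings. The clock outputs summed to 5789, 6301, 6564 and 6488 CPM in mutants and to 6207 to 6662 CPM in siblings. The heart marker myl7 read 11.1, 14.5, 12.3 and 0.140 CPM in mutants and 12.8, 3.27, 12.9 and 20.1 CPM in siblings, so it was near 0 in mutant replicate 4. The 7 heart markers summed to 28.3 to 78.4 CPM in mutants and 36.3 to 83.1 CPM in siblings. The lowest sum was that of mutant replicate 4, where hand2 gave 25.2 CPM and nppa read 0 CPM. None of the 7 was called at 48 hpf by edgeR or DESeq2 or had an unadjusted p under 0.05. Immediate early RNA was highest in mutant replicate 3, where fosab reached 10.2 CPM against 1.65 to 3.99 CPM in the other mutants and 0.812 to 1.47 CPM in siblings. Of the 15 immediate early genes 5 rose in mutants, with sums of 303 to 471 CPM in mutants and 266 to 271 CPM in siblings.

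The same lists were read at 48 hpf, where 7.43% of all genes were called. Of 21 clock protein turnover genes 4 fell, among them the casein kinase 2 genes csnk2a2a (log2 fold change -0.31, SE 0.0627) and csnk2a1 (-0.25, SE 0.0577), with edgeR adjusted p-values of 0.00675 and 0.0146. Of 22 co-regulators 2 fell, tipin and prmt5. Of the 12 repair genes neil1 fell again, by 0.40 on the log2 scale (SE 0.116, edgeR adjusted p = 0.0462). Of 21 clock outputs 2 rose and 1 fell. The sterol and lipogenic regulator srebf1, which is also an output of the liver clock in mammals, rose, with a log2 fold change of 1.94 (SE 0.117, edgeR adjusted p = 2.52e-08). The pdk4 gene fell again, with a log2 fold change of -1.66 (SE 0.129, edgeR adjusted p = 4.95e-07). Of 14 glucocorticoid targets 1 rose, sgk1, which is on both lists and is the other clock output that rose. Of 19 photopigment genes none was called by edgeR or DESeq2, or had an unadjusted p under 0.05.

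Tissue markers also moved with genotype at 48 hpf, and their part in the clock gene differences was not tested. Of 17 pineal markers other than aanat2, 2 fell (otx5 and crx), with sums of 229 to 263 CPM in mutants and 307 to 365 CPM in siblings. These sums held otx5 at a mean of 64.3 CPM in mutants and 104 CPM in siblings, and crx at 46.5 and 79.0 CPM. Over the 17 markers, 9 log2 fold changes were negative and 8 positive, with a median of -0.005. Of 13 retina markers 3 fell, with sums of 333 to 410 CPM in mutants and 423 to 502 CPM in siblings. The lists share genes, and these 3 include crx, already counted among the pineal markers, and neurod1, which is also counted among the brain markers. Of 10 brain markers 4 fell, with sums of 2645 to 2928 CPM in mutants and 3077 to 3200 CPM in siblings. Of 20 yolk syncytial layer markers 1 fell, apoa4b.2 (log2 fold change -6.42, SE 1.59, edgeR adjusted p = 0.0214). Over the 20 markers, 15 log2 fold changes were negative and 5 positive. Their mean log2 level, which includes apoa4b.2, was lower in mutants by 0.89 (-0.89). The exact two-sided permutation p was 0.0286, the smallest that 4 against 4 libraries allow, and 0.0571 adjusted over both ages. This list was chosen with earlier results of these data known, so the p is no independent evidence on the yolk syncytial layer.

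With age, most clock genes changed, at a rate near that of the transcriptome. In siblings 31 of 43 were called between 48 and 24 hpf, 22 higher and 9 lower at 48 hpf, where 63.3% of all genes were called, 34.1% higher and 29.2% lower. In mutants 28 were called, 25 higher and 3 lower, where 64.4% of all genes were called, 34.1% higher and 30.4% lower. The median log2 fold change (48 over 24 hpf) was 0.33 in siblings and 0.56 in mutants, against 0.06 and 0.05 over all genes. Libraries of the 2 ages did not overlap for 34 clock genes in siblings (79.1%, against 59.2% of all genes). In mutants they did not for 20 (46.5%, against 58.8% of all genes).

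Nuclear receptor genes rose with age as a group. All 5 Rev-erb and all 4 Ror genes were called higher at 48 hpf in both genotypes. In siblings the libraries of the 2 ages did not overlap for any of them. In mutants they did not for 4 of the 5 Rev-erb and 3 of the 4 Ror genes. For nr1d1, 48 hpf mutant replicate 1 (0.732 CPM) lay below the lowest 24 hpf mutant library (0.734 CPM). The largest change was that of nr1d2a, a Rev-erb beta gene, at 40.2, 37.1, 49.6 and 29.3 CPM in 48 hpf siblings against 2.81, 4.69, 3.58 and 3.30 CPM in 24 hpf siblings (log2 fold change 3.44, SE 0.253, edgeR adjusted p = 1.71e-09). In mutants the log2 fold change was 3.45 (SE 0.251). The Ror gene roraa reached 43.04 ± 1.19 CPM in 48 hpf siblings against 6.38 ± 0.671 CPM in 24 hpf siblings (SD, n = 4, log2 fold change 2.75), and nr1d4b changed by 2.44 on the log2 scale.

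Among Period and D-box genes, per1a rose by 2.75 in siblings (SE 0.541, edgeR adjusted p = 0.000247), nfil3-5 by 2.12 (SE 0.0941) and dbpa by 2.06 (SE 0.239), all on the log2 scale. The nfil3-5 libraries read 165, 160, 170 and 158 CPM in 48 hpf siblings and 37.2, 37.7, 40.2 and 35.6 CPM in 24 hpf siblings. The kinase gene csnk1e rose as well, by 1.25 in siblings and 1.38 in mutants, while csnk1db was level, at 0.02 (SE 0.0548) in siblings.

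Among the 9 clock genes called lower with age in siblings, the 6 with the most negative change were cry5 (-1.88), cry-dash (-1.44), npas2 (-0.90), tefa (-0.83), cry1bb (-0.61) and bhlhe40 (-0.53). Of these, npas2, a partner of Bmal, was the gene called lower with age in mutants too, at -0.84 (SE 0.222, edgeR adjusted p = 0.00298). The changes in mutants were -0.42 for cry5, -0.17 for cry-dash, 0.13 for tefa, -0.11 for cry1bb and -0.05 for bhlhe40, none of them called. The genotypes differed in this change beyond the test for cry-dash and tefa, by the interaction given above, and missed the test for the other 4. For cry1ab the 2 age changes had opposite signs and both were called, at 0.66 in mutants (SE 0.173, edgeR adjusted p = 0.00287) and -0.41 in siblings (SE 0.172, edgeR adjusted p = 0.0462).

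**Figure D5:**
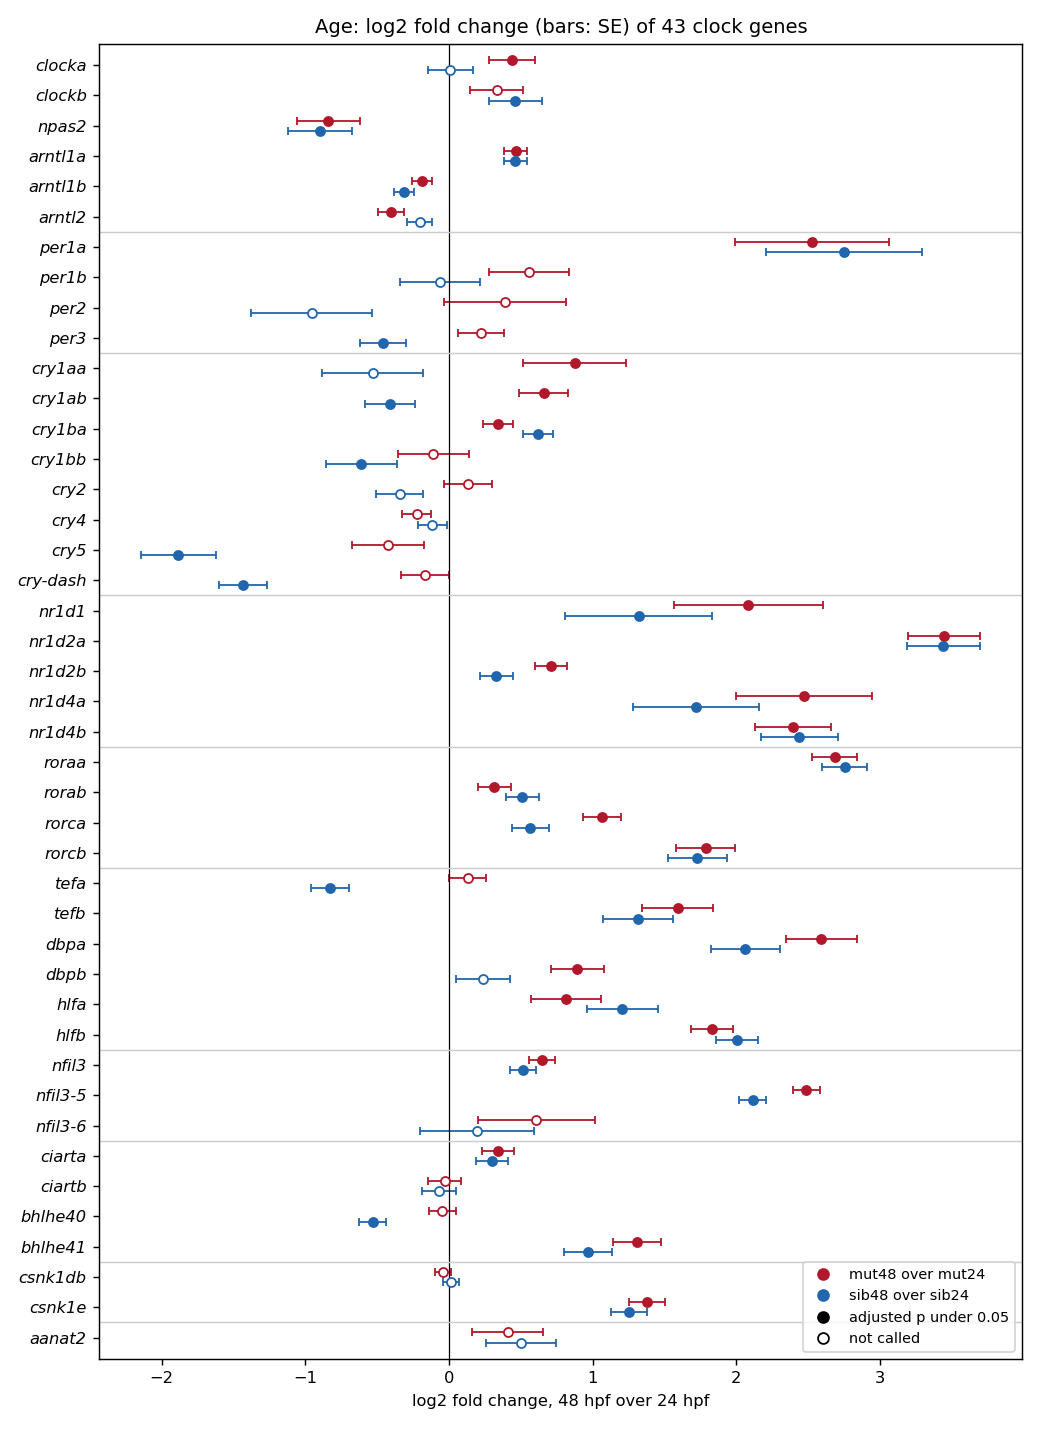
Log2 fold change (48 over 24 hpf) with its SE for each of the 43 clock genes, by role, in mutants (red) and siblings (blue). Filled points passed an adjusted p under 0.05. Rev-erb and Ror genes lie right of 0 in both genotypes, and cry5, cry-dash and tefa lie further left in siblings than in mutants.

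Some clock genes share a chromosome with a targeted gene. By gene order in the RefSeq table, tefa, csnk1e, hlfb and csnk1db are on the chromosome of lipf, with 57, 66, 295 and 303 protein-coding genes between. On the chromosome of pla2g15 are cry2, arntl1a, ciartb and roraa, with 5, 83, 262 and 386 between. Of these 8 genes tefa was called between genotypes at 24 hpf and none at 48 hpf. Over all genes 0.831% were called at 24 hpf and 7.43% at 48 hpf. Whether linked sequence differs between siblings and mutants was not tested.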

How the data were processed

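The authors deposited 1 table of read counts per gene for 16 libraries, which names genes by symbol. Per the labels' protocols, RNA was extracted with TRIzol and libraries were made with a VAHTS kit. Per the submitters' processing notes, featureCounts 2.0.6, STAR 2.7.10b, FastQC 0.12.1 and Trim Galore 0.6.10 were used, with GRCz11 as the build. Gene models, strandedness and the handling of multi-mapped reads were not given in the sources used here.

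From these deposited counts, all 16 libraries were fitted with 1 mean per group in edgeR 4.0.16 (R 4.3.3) after filterByExpr and TMM scaling. The two-sided quasi-likelihood F-test was adjusted by Benjamini-Hochberg over 24300 genes and called at 0.05, and the filter removed 11809 genes. SE is the absolute log2 fold change divided by the square root of F. CPM are TMM-scaled, and log2 CPM have a prior count of 2. The fit was tested on simulated counts.

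Full values are given for members called between genotypes or in the interaction, filled up to the 6 smallest p per genotype comparison. The 6 largest and 6 smallest called changes with age in siblings are named, many by log2 fold change alone. The clock genes and the other lists were chosen with earlier results of these data known. RefSeq names and gene order come from assembly GRCz12tu, of another build than the counts, so no coordinates are given. Alternatives were DESeq2 1.42.0, other scaling and filters, a replicate block, a yolk score covariate, fits of the compared groups alone and leaving out each library. Replicate pairs of a group differed beyond sampling noise, and each library was counted as 1 sample. That difference cannot show that the libraries are independent biological samples, since separate preparations of the same material could also differ.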

Additional observations from a re-analysis of the deposited data

Results flagged for a closer look

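In 3 of 68 groups of 4 libraries (17 clock genes, 4 groups each), 1 library stood far from the others, and chance flags about 1 in 20 groups. They were cry5 in 24 hpf sibling replicate 2 (10.7 CPM, above its group), cry5 in 48 hpf sibling replicate 3 (3.37 CPM, above its group) and nfil3-6 in 24 hpf sibling replicate 3 (4.22 CPM, above its group). Genotype differences that differed between ages by the interaction test (edgeR) were those of cry-dash (1.27 on the log2 scale), cry1ab (1.07) and tefa (0.96).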

How the results depend on the processing

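The 4 clock genes called at 24 hpf became 8 with DESeq2, 7 with the yolk score as a covariate, 7 with the compared groups fitted alone, and 0 to 4 when a library was left out. At 48 hpf, leaving out a library gave 0 to 4 calls. The interaction gave 6 calls with DESeq2 and 2 to 5 without a library. Age calls ranged from 26 to 30 in siblings and from 25 to 31 in mutants without a library. Leaving out a library also leaves fewer samples in the fit. Beyond that the cause was not tested. Of the fits without a library, calls over all genes are given above for some at 24 hpf alone. The count of clock genes most variable in 48 hpf mutants, an alternative chosen after seeing the data, ranged from 27 to 31 without a mutant library. Counting rows with a listed symbol alone, likewise chosen after seeing the data, gave 3 calls between genotypes at 24 hpf, 2 at 48 hpf, 26 with age in mutants, 30 with age in siblings and 2 for the interaction. Other scaling, no filter and a filter of at least 1 CPM in at least 4 libraries kept every count within 1.5 times. For the 15 results on single genes, 197 of 246 alternatives kept direction and side of the threshold, 37 lost the call, 12 gained it and none changed sign.

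Replicate numbers are shared by the groups, but deviations of same-numbered libraries correlated between -0.11 and 0.20 over all genes. Over the clock genes they correlated between -0.30 and 0.35, and between -0.03 and 0.35 for mutants and siblings at 24 hpf. Since not every pair was over 0.1, the numbers were not taken as pairs. With the replicate block, 7 clock genes were called at 24 hpf, with cry1aa, cry1bb and cry5 added, and the counts of the other comparisons moved by less than 1.5 times. The share of all genes called with the block is not given.

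The yolk syncytial layer score differed by -0.53 between mutants and siblings at 24 hpf (exact permutation p = 0.686), and by -1.29 to 0.11 without a library: 0.021 without sibling replicate 3, 0.074 without mutant replicate 2 and 0.11 without mutant replicate 4. At 48 hpf it ranged from -0.96 to -0.80. With 4 libraries a group and no clutch or hour of collection in the labels, low-count genes such as nr1d4a, nfil3-6 and per1a were measured with wide error.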
